A study of Mus musculus with 7 samples.

Results

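The genes described here are the collagen and laminin genes of SMB21 cells, a mouse medulloblastoma line of Ptch1-mutant origin, after a CRISPR guide against Ofd1, Kif3a or GFP. Members were taken by symbol: every row of the count table named Col, digits, a and digits, or Lama, Lamb or Lamc followed by a digit. The rule found 55 of 24047 genes, 44 collagens and 11 laminins. Of these, 39 (31 collagens and 8 laminins) held 10 or more counts summed over the 7 libraries and were tested, 12 held 1 to 9 counts and 4 held none. The edited groups were sgOfd1 (3 libraries) and sgKif3a (2 libraries), and their control was sgGFP (2 libraries). The series' text counts 3 sgGFP replicates, of which the sources used here hold 2. All 3 groups share the strain background Ptch1tm1Mps/J with the label Ptch mutant and age Adult, growth as neurospheres in a medium with B27, infection with a lentiCRISPR vector, and collection 2 weeks after infection. Both targeted genes serve the primary cilium: the Ofd1 protein sits at the distal end of centrioles, and Kif3a drives transport along the ciliary axoneme. Whether each library came from a clone or from a pool of infected cells is not given in the sources used here.

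Collagens are matrix proteins whose 3 chains wind into a triple helix, and the family divides by what the helix builds: fibrils (the fibrillar collagens), the sheet of basement membranes (collagen IV), beaded filaments (collagen VI), molecules that decorate fibrils (the FACIT class), cell-surface proteins (the transmembrane class) and proteoglycan cores of basement membrane zones (the multiplexins). Laminins are cross-shaped trimers of 1 alpha, 1 beta and 1 gamma chain; they seed basement membranes and bind integrins and dystroglycan through the alpha chain. In the developing cerebellum, granule neuron progenitors, the cells from which this tumour type arises, divide just under the basement membrane of the pia.

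Library totals ran from 17961767 to 23022701 counts. Levels are in CPM, counts scaled to library size with TMM factors, and a gene with 0 counts in a library may stand for up to 3 counts, or 0.129 to 0.166 CPM. This limit covers counting error only. The targeted gene Kif3a stood at 90.5, 92.9 and 97.5 CPM in sgOfd1, at 73.9 and 60.7 CPM in sgKif3a, and at 104 and 104 CPM in sgGFP, and was lower in sgKif3a (log2 fold change -0.62, adjusted p = 0.00147). Ofd1 stood at 21.0, 19.98 and 22.03 CPM in sgOfd1, at 31.6 and 29.1 CPM in sgKif3a, and at 22.5 and 23.1 CPM in sgGFP. No lower Ofd1 transcript was detected with its own guide (log2 fold change in sgOfd1 -0.12, adjusted p = 0.406), and an edit need not lower a transcript, so this level does not check the label. Ofd1 rose by 0.41 in sgKif3a (adjusted p = 0.0138), a call lost without sgGFP replicate 1 (0.117), sgGFP replicate 2 (0.0700) or sgKif3a replicate 1 (0.137). By a chi-square per degree of freedom over genes, sgOfd1 replicate 2 lay closer to sgKif3a replicate 2 (5.60) than to sgOfd1 replicates 1 and 3 (9.34 and 7.48), so the 2 mutants did not separate fully by guide. All 9 granule neuron progenitor and Hedgehog tumour markers were present, with sums of 2943 to 3326 CPM in sgOfd1, 3089 to 3239 CPM in sgKif3a and 2895 to 2961 CPM in sgGFP. Of these 9, 7 were called in each mutant: Atoh1, Pax6 and Barhl1 rose, and Mycn, Hhip, Ptch1 and Gli1 fell. That is 77.8% in each, against 11.7% of all genes tested in sgOfd1 and 16.4% in sgKif3a. Gli1 passed narrowly (adjusted p = 0.0372 in sgOfd1 and 0.0494 in sgKif3a), and calls of marker genes come from the reported fit only. Myeloid markers summed to 17.2 CPM in sgGFP replicate 1, against 2.40 CPM in sgGFP replicate 2 and 2.85 to 3.88 CPM in the 5 mutant libraries. Of these Lyz2 was called lower in sgOfd1 (adjusted p = 0.0369) and sgKif3a (0.0458), with 121 counts in sgGFP replicate 1 and 0 in sgGFP replicate 2. Endothelial markers (6 listed, Cldn5 at 0) summed to 0.984 to 1.55 CPM in sgOfd1, 0.518 to 0.703 CPM in sgKif3a and 2.01 to 2.15 CPM in sgGFP. Among them Cdh5 fell in sgKif3a (log2 fold change -1.75, adjusted p = 0.0250) and did not pass in sgOfd1 (-0.99, 0.119). Pericyte and smooth muscle markers summed to 10.2 to 11.6 CPM in sgOfd1, 8.37 to 9.14 CPM in sgKif3a and 11.8 to 12.6 CPM in sgGFP. Most of these sums was Cspg4, which fell in sgKif3a (log2 fold change -0.61, adjusted p = 0.0106) and did not pass in sgOfd1 (-0.15, 0.430). Schwann and oligodendrocyte markers (Mog and Sox10 at 0) summed to 27.8 to 30.6 CPM in sgOfd1, 28.8 to 28.9 CPM in sgKif3a and 23.5 to 26.2 CPM in sgGFP. Astrocyte and stem-like markers (Aqp4 at 0) summed to 373 to 485 CPM in sgOfd1, 379 to 403 CPM in sgKif3a and 501 to 511 CPM in sgGFP. Within that list Sox2 and Sox9 fell in both mutants, while Gfap averaged 79.9 CPM in sgOfd1, 75.6 CPM in sgKif3a and 43.3 CPM in sgGFP and did not pass (adjusted p = 0.179 in sgOfd1 and 0.234 in sgKif3a).

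Fibril genes that are abundant in fibroblasts were nearly absent: Col1a2, Col3a1 and Col5a2 held 3, 3 and 2 counts over all 7 libraries, and Col1a1 held 76. Per kilobase of exon, the level that allows genes of different length to be compared, the highest member was Col9a3, a chain of the FACIT collagen IX, at 89.1 CPM per kilobase in sgOfd1, 101.9 in sgKif3a and 66.3 in sgGFP (group means). Lama5, Lamb2, Lamc1 and Col27a1 also averaged 10 or more CPM per kilobase over the 7 libraries. Another 9 members averaged 1 to 10, 15 averaged 0.1 to 1 and 26 lay under 0.1 CPM per kilobase. Neighbours in this order often overlapped: Lama5 and Lamb2 averaged 16.8 and 21.0 CPM per kilobase in sgOfd1, but 35.0 and 17.3 in sgGFP. Col9a3 alone carried 70.7% to 73.3% of the collagen signal per kilobase in sgOfd1 and 73.1% to 74.5% in sgKif3a, against 60.1% to 61.4% in sgGFP.

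**Figure D1:**
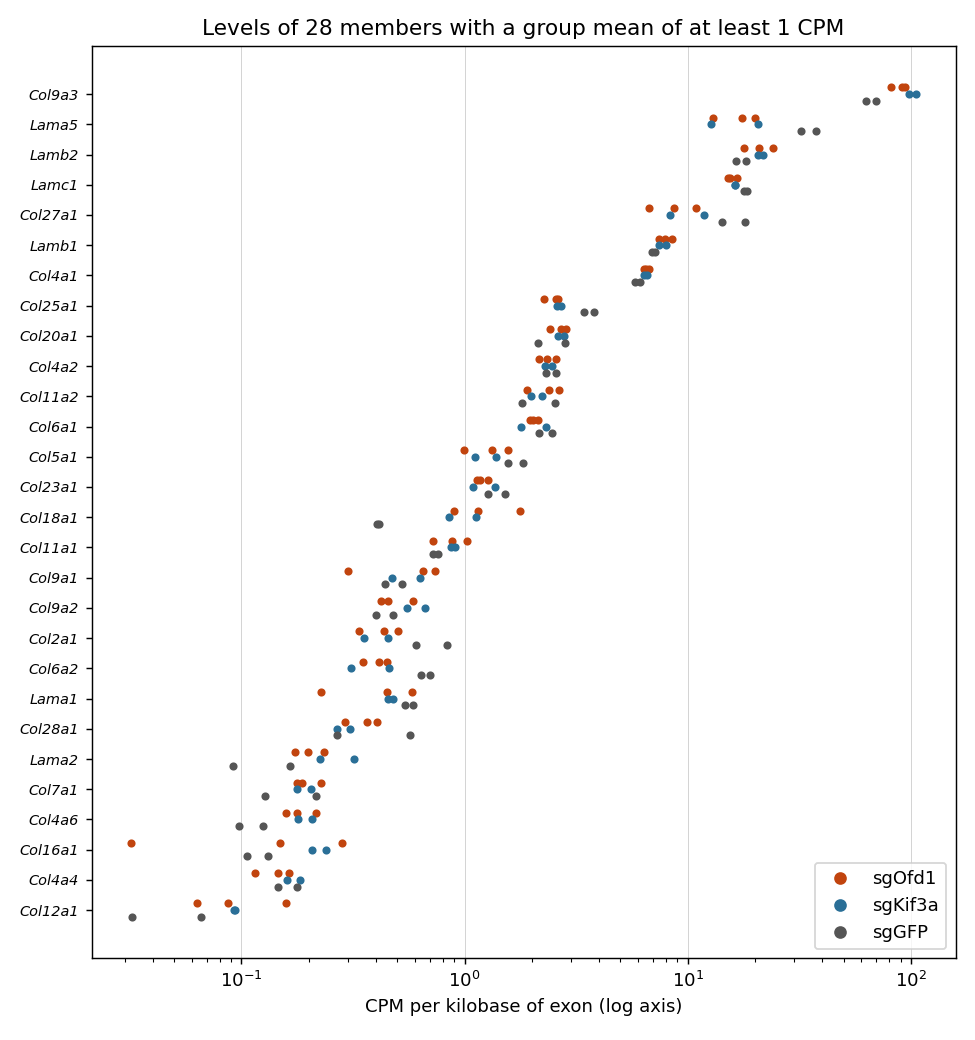
Level of 28 tested members with a group mean of at least 1 CPM, in CPM per kilobase of exon on a log axis; each point is 1 library, coloured by group. Col9a3 lies above all other members in every library, and the Lama5 points of sgGFP (2 libraries) lie apart from and above those of both mutants.

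Measured against the control, 5 of 39 tested members were called in sgOfd1 and 7 of 39 in sgKif3a, at an edgeR adjusted p under 0.05 over all 14588 genes tested. Over all these genes 11.7% were called in sgOfd1 over sgGFP and 16.4% in sgKif3a over sgGFP, and the members' shares, 12.8% in sgOfd1 and 17.9% in sgKif3a, lay near them. In sgOfd1 2 members rose (Col9a3 and Col18a1) and 3 fell (Lama5, Col27a1 and Col25a1), where 5.35% of all genes rose and 6.32% fell (45.8% of called genes higher, or 56.6% with library totals alone as scaling). In sgKif3a 3 rose (Col9a3, Col18a1 and Lama2) and 4 fell (Lama5, Col27a1, Col25a1 and Col6a2), where 7.55% of all genes rose and 8.84% fell. Both comparisons share the sgGFP libraries. The median log2 fold change of the 39 members was 0.13 in sgOfd1 and 0.13 in sgKif3a, beside 0.00 over all genes in each comparison. In sgOfd1 all libraries lay above sgGFP for 8 members and below for 8 (20.5% each, against 23.2% and 23.1% of all genes), and in sgKif3a for 14 and 11 members (35.9% and 28.2%, against 32.6% and 30.2%).

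**Figure D2:**
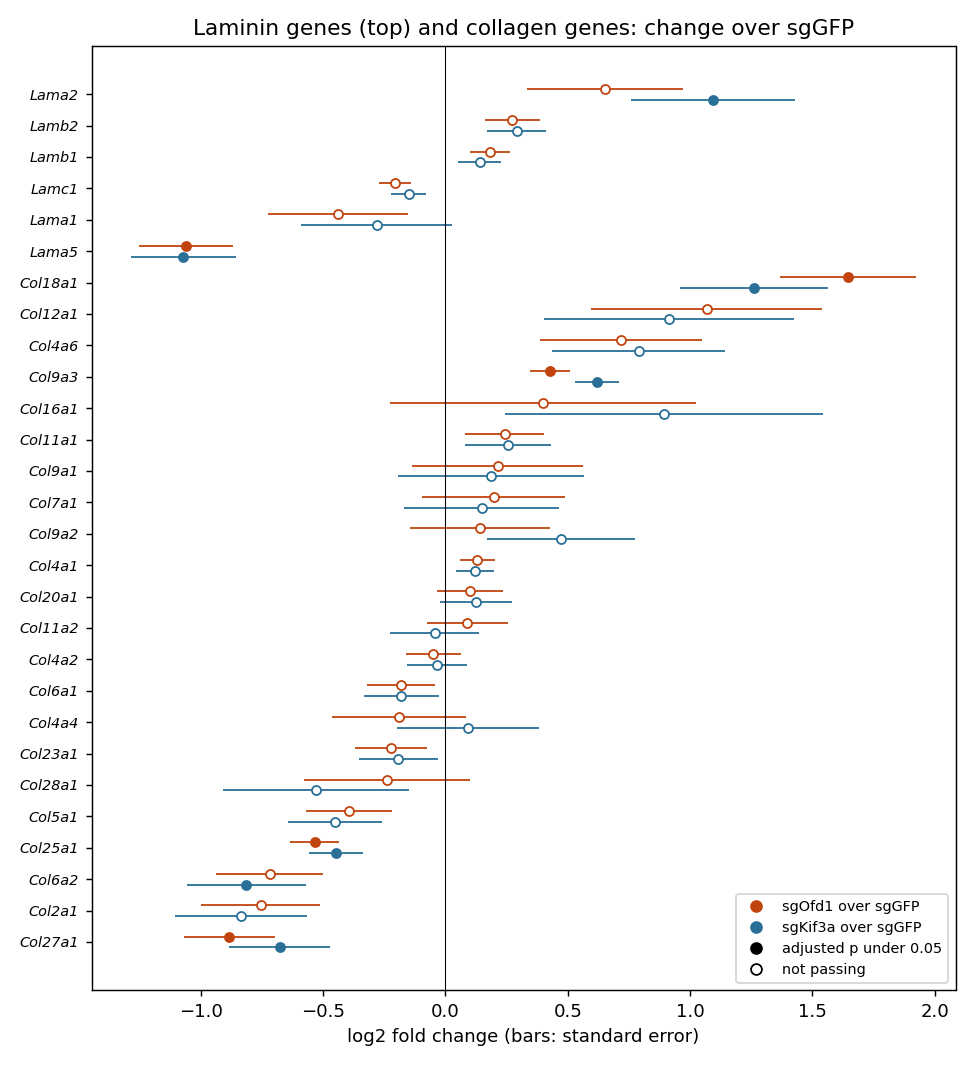
Log2 fold change over sgGFP with its standard error for 28 members with a group mean of at least 1 CPM, laminins above and collagens below, sgOfd1 in orange and sgKif3a in blue; filled points passed at an adjusted p under 0.05. Lama5 lies near -1.06 in both mutants, apart from the other laminin chains.

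The most abundant laminin alpha chain gene, Lama5, fell in both mutants. It encodes the alpha 5 chain of laminin-511 and laminin-521, the alpha chain of many mature epithelial and vascular basement membranes. Lama5 stood at 148, 227 and 199 CPM in the sgOfd1 libraries, at 145 and 235 CPM in the sgKif3a libraries, and at 367 and 430.2 CPM in the sgGFP libraries. Every mutant library lay below both control libraries, and replicate 1 was the lowest of each mutant group. The mean was 191 ± 40.3 CPM in sgOfd1 (SD, n = 3) and 189.95 ± 63.2 CPM in sgKif3a (SD, n = 2), against 399 ± 44.7 CPM in sgGFP (SD, n = 2). Lama5 fell by 1.06 on the log2 scale in sgOfd1 (SE 0.192, adjusted p = 0.00592) and by 1.07 in sgKif3a (SE 0.215, adjusted p = 0.00712). The sgOfd1 call held under each alternative and without any 1 library, and the sgKif3a call was lost without sgKif3a replicate 1 (adjusted p = 0.0842). These are bulk RNA libraries, so fewer cells of a type and less RNA per cell cannot be told apart. The 10 fibroblast and meningeal markers also summed lower in the mutants, to 126 to 218 CPM in sgOfd1 and 137 to 177 CPM in sgKif3a, against 316 to 334 CPM in sgGFP. Of 8 tested, 3 fell in each mutant (Pdgfra, Foxc1 and Twist1). That is 37.5% in each, against 11.7% of all genes called in sgOfd1 and 16.4% in sgKif3a. Pdgfra made up 255 to 268 CPM of the sgGFP sums, while Dcn held 2 counts in all 7 libraries and Lum reached 0.35 CPM at most. The part of these markers in the Lama5 result was not tested.

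The promoter window of Lama5, 250 bases before to 50 after the annotated start, is shown because this gene had the largest called fall among the members in both mutants. It is the RefSeq sequence, 5′ to 3′ on the strand of the gene, with GC boxes (GGGCGG or CCGCCC) in capitals.
Lama5 (GRCm38.p6, chr2:180225810-180226109, minus strand): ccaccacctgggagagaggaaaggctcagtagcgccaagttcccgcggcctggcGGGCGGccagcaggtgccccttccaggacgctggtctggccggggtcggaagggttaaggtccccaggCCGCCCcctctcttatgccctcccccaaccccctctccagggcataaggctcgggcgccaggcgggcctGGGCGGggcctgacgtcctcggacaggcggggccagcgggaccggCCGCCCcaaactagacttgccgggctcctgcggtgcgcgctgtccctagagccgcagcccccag
The window holds 4 GC boxes on either strand. It holds no CCAAT box (CCAAT or ATTGG), no hypoxia response core (ACGTG or CACGT) and no Gli core (TGGGTGG or CCACCCA), which says only that these letters are not in it. Of 32851 windows of this length in the RefSeq table, 35.7% hold a GC box, 37.4% a CCAAT box, 19.6% a hypoxia response core and 9.3% a Gli core. Of 29 tested members with a window, 19 hold a GC box in at least 1 window, 11 a CCAAT box, 3 a hypoxia response core and 3 a Gli core. These are counts of genes, some with more than 1 window, while the percentages are shares of windows.

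The other alpha chains were far lower. Lama1, the alpha 1 chain of the early embryonic and pial laminin-111, stood at 2.17, 5.55 and 4.27 CPM in sgOfd1, at 4.32 and 4.54 CPM in sgKif3a and at 5.60 and 5.16 CPM in sgGFP. The sgOfd1 and sgGFP ranges overlapped, and Lama1 passed in neither mutant (adjusted p = 0.348 in sgOfd1 and 0.580 in sgKif3a). Lama2, the alpha 2 chain of muscle and peripheral nerve laminin, stood at 2.31, 1.94 and 1.70 CPM in sgOfd1, at 3.15 and 2.22 CPM in sgKif3a, and at 1.62 and 0.901 CPM in sgGFP. All mutant libraries lay above both controls, yet Lama2 rose by 1.09 in sgKif3a alone by the test (SE 0.334, adjusted p = 0.0469), against 0.65 in sgOfd1 (SE 0.319, adjusted p = 0.207). The mutants did not differ by test in Lama2 (log2 difference of sgOfd1 over sgKif3a -0.44, SE 0.287, adjusted p = 0.707). The sgKif3a call rests on few counts and was lost with DESeq2 (adjusted p = 0.0993) and without sgGFP replicate 2 (0.247), sgOfd1 replicate 2 (0.0680), sgOfd1 replicate 3 (0.0564), sgKif3a replicate 1 (0.305) or sgKif3a replicate 2 (0.0613). Lama4 and Lama3 held 9 and 1 counts in all and were not tested.

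The beta chains Lamb1, Lamb2 and Lamb3 and the gamma chain Lamc1 did not pass in either mutant with the filter used here, filterByExpr or no filter. Lamb2, the beta 2 chain of synaptic and kidney basement membranes, stood at 136, 117 and 100.5 CPM in sgOfd1, at 122 and 117 CPM in sgKif3a and at 92.3 and 103 CPM in sgGFP. The sgKif3a libraries lay above sgGFP and the sgOfd1 libraries overlapped it. Its log2 fold changes were 0.27 in sgOfd1 (SE 0.111, adjusted p = 0.131) and 0.29 in sgKif3a (SE 0.120, adjusted p = 0.123), and it passed in sgOfd1 without sgOfd1 replicate 3 (0.0216) and in sgKif3a without sgOfd1 replicate 1 (0.0478). Lamb1, the beta 1 chain found in most basement membranes, stood at 46.3, 49.9 and 43.5 CPM in sgOfd1, at 46.9 and 43.5 CPM in sgKif3a and at 40.3 and 41.8 CPM in sgGFP. Here the mutant libraries lay above both controls by less than the test could call (0.18 in sgOfd1, SE 0.0806, adjusted p = 0.164, and 0.14 in sgKif3a, SE 0.0878, adjusted p = 0.303). Lamc1, the gamma 1 chain that most laminins share, stood at 118, 126 and 116 CPM in sgOfd1, at 125 and 125 CPM in sgKif3a and at 136 and 140.4 CPM in sgGFP. The mutant libraries lay below both controls, with log2 fold changes of -0.21 in sgOfd1 (SE 0.0648, adjusted p = 0.0632) and -0.15 in sgKif3a (SE 0.0711, adjusted p = 0.174). Lamb3, a beta chain of epithelial laminin, stood between 0.216 and 0.777 CPM over the 7 libraries and did not pass. Lamc3 held 4 counts in all.

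Summed per kilobase, the alpha chains of laminin lay lower in the mutant libraries, a sum that is nearly all Lama5, while no beta chain passed; the sums and ratios were not tested. The alpha chains summed to 13.5 to 20.7 CPM per kilobase in sgOfd1 and 13.5 to 21.3 in sgKif3a, against 33.0 to 38.4 in sgGFP. Beta chains summed to 25.4 to 32.3 in sgOfd1, 28.3 to 29.7 in sgKif3a and 23.4 to 25.5 in sgGFP, and gamma chains to 15.4 to 16.9 in sgOfd1, 16.6 to 16.9 in sgKif3a and 18.1 to 18.6 in sgGFP. The alpha sum was the highest of the 3 classes in both sgGFP libraries, and the beta sum was the highest in all 5 mutant libraries. The ratio of Lama5 to Lamc1 per kilobase was 0.838, 1.20 and 1.15 in sgOfd1 and 0.780 and 1.26 in sgKif3a, against 1.80 and 2.05 in sgGFP. These sums are descriptions of RNA levels, and trimers were not measured.

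**Figure D3:**
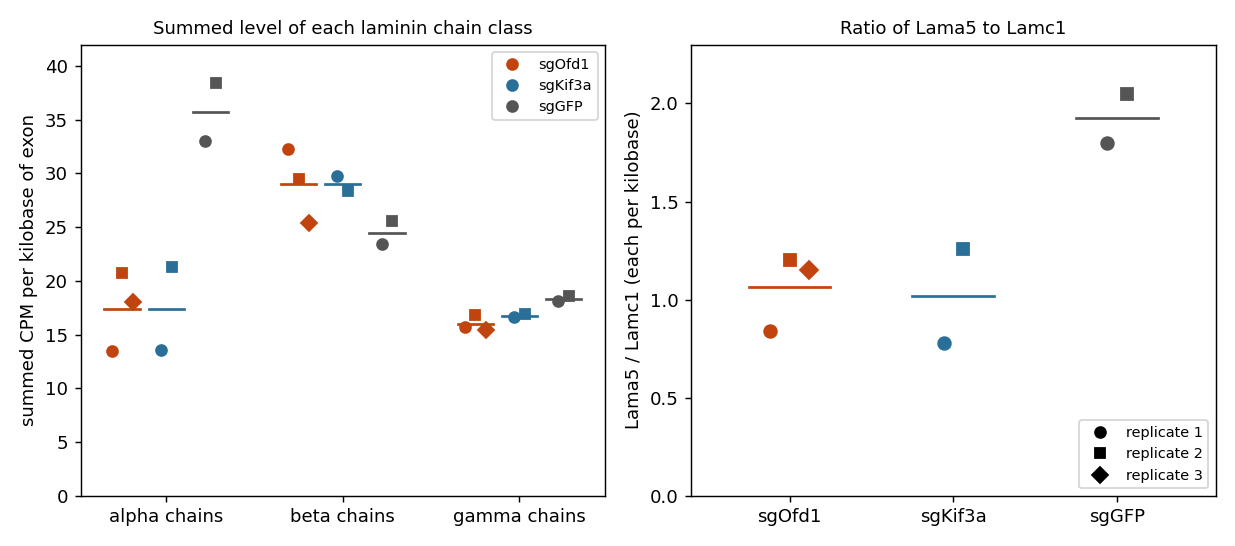
Left, summed CPM per kilobase of exon of the alpha, beta and gamma laminin chains by group. Right, the ratio of Lama5 to Lamc1 per kilobase. Points are libraries and lines are group means; the alpha sum and the ratio of every mutant library lie below both sgGFP libraries, which stand at 33.0 and 38.4 CPM per kilobase and at ratios of 1.80 and 2.05.

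Of the FACIT collagens Col9a3 passed in both mutants, and it was the collagen with the most reads. Col9a3 encodes the alpha 3 chain of collagen IX, a trimer of 3 different chains known best from the surface of cartilage fibrils. It stood at 279, 286 and 249 CPM in sgOfd1, at 299 and 322 CPM in sgKif3a and at 191 and 213 CPM in sgGFP. Each mutant library lay above both controls. Col9a3 rose by 0.43 in sgOfd1 (SE 0.0814, adjusted p = 0.00794) and by 0.62 in sgKif3a (SE 0.0884, adjusted p = 0.00117), and lost its sgOfd1 call without sgGFP replicate 1 (adjusted p = 0.1003). Its partner chains were present at trace levels: Col9a1 ranged from 1.23 to 3.04 CPM and Col9a2 from 1.18 to 1.94 CPM over the 7 libraries, and neither passed. Per kilobase Col9a3 exceeded Col9a1 by 111 to 306 times in sgOfd1, 167 to 207 times in sgKif3a and 119 to 159 times in sgGFP. An exon of Tcfl5 on the other strand overlaps Col9a3 by 234 bases in the GRCm38 annotation, but Tcfl5 held 1 count in all 7 libraries.

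Other FACIT members were lower and did not pass in either mutant. Col20a1 ranged from 12.4 to 14.7 CPM in sgOfd1, from 13.5 to 14.3 CPM in sgKif3a and from 10.996 to 14.5 CPM in sgGFP. Col12a1, which binds the surface of collagen I fibrils, stood at 1.92, 1.05 and 0.772 CPM in sgOfd1, at 1.12 and 1.14 CPM in sgKif3a and at 0.393 and 0.801 CPM in sgGFP (adjusted p = 0.164 in sgOfd1 and 0.248 in sgKif3a). Col16a1 ranged from 0.166 to 1.48 CPM within sgOfd1 alone. Col14a1 held 6, 9 and 2 counts in sgOfd1, 0 and 4 in sgKif3a, and 1 and 0 in sgGFP, and Col22a1 held 1, 3 and 6 counts in sgOfd1, 5 and 8 in sgKif3a, and 0 and 1 in sgGFP. Neither passed: the adjusted p was 0.148 for Col14a1 and 0.219 for Col22a1 in sgOfd1, and 0.535 and 0.0836 in sgKif3a.

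Among the fibrillar collagens the called change was in Col27a1, which encodes a collagen of thin fibrils known from cartilage and the eye. Its levels were 50.9, 83.0 and 66.1 CPM in sgOfd1 and 63.7 and 90.3 CPM in sgKif3a, against 108 and 137 CPM in sgGFP. All mutant libraries lay below both controls, and as for Lama5 replicate 1 was the lowest of each mutant group. Col27a1 fell by 0.88 in sgOfd1 (SE 0.186, adjusted p = 0.0126) and by 0.68 in sgKif3a (SE 0.206, adjusted p = 0.0465). The sgOfd1 call was lost without sgGFP replicate 2 (adjusted p = 0.0619). The sgKif3a call was lost with DESeq2 (0.142) and without sgGFP replicate 2 (0.183), sgOfd1 replicate 3 (0.0638) or sgKif3a replicate 1 (0.319). Other fibrillar chains with a group mean of at least 1 CPM did not pass. Col2a1, the main fibril chain of cartilage, stood at 2.56, 1.72 and 2.21 CPM in sgOfd1, at 1.81 and 2.33 CPM in sgKif3a and at 3.09 and 4.26 CPM in sgGFP, below both controls in each mutant library (-0.76 in sgOfd1, SE 0.243, adjusted p = 0.0685, and -0.84 in sgKif3a, SE 0.271, adjusted p = 0.0577). It passed in sgKif3a with filterByExpr and without sgOfd1 replicate 1, and in both mutants without filter. Col5a1, a chain that sets fibril diameter, showed the same order of groups, with 8.37 to 13.15 CPM in sgOfd1, 9.32 to 11.6 CPM in sgKif3a and 13.16 to 15.4 CPM in sgGFP (adjusted p = 0.165 in sgOfd1 and 0.135 in sgKif3a), and passed in sgKif3a without sgOfd1 replicate 1. Col5a3, another collagen V chain, held 2, 5 and 3 counts in sgOfd1, 1 and 1 in sgKif3a, and 3 and 12 in sgGFP. Its sgKif3a libraries lay below both controls without passing (adjusted p = 0.385 in sgOfd1 and 0.0881 in sgKif3a), and it passed there without sgGFP replicate 1. Col11a1 and Col11a2, chains of collagen XI, had log2 fold changes of 0.24 and 0.09 in sgOfd1 and of 0.25 and -0.04 in sgKif3a, with adjusted p of 0.350 or more.

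The transmembrane collagen Col25a1, known as the precursor of a protein found in amyloid plaques and as a factor of motor axon growth into muscle, stood at 15.7, 18.2 and 17.8 CPM in sgOfd1 and at 17.9 and 18.8 CPM in sgKif3a, against 23.6 and 26.3 CPM in sgGFP. The mutant libraries lay close together and below both controls. Col25a1 fell by 0.53 in sgOfd1 (SE 0.0999, adjusted p = 0.00714) and by 0.45 in sgKif3a (SE 0.110, adjusted p = 0.0187). Without sgGFP replicate 2 both calls were lost (adjusted p = 0.0806 in sgOfd1 and 0.147 in sgKif3a), and the sgKif3a call was also lost without sgKif3a replicate 1 (0.138) or 2 (0.0578). Col23a1, another transmembrane collagen, ranged from 6.43 to 7.23 CPM in sgOfd1, 6.17 to 7.73 CPM in sgKif3a and 7.22 to 8.61 CPM in sgGFP and did not pass. Col17a1, the hemidesmosome collagen of skin, held 20 counts in all and Col13a1 held none.

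Col18a1 had the largest called rise among the members in both mutants. It encodes collagen XVIII, a basement membrane proteoglycan whose C-terminal fragment is endostatin. The level was 12.1, 6.10 and 7.82 CPM in sgOfd1 and 5.78 and 7.63 CPM in sgKif3a, against 2.80 and 2.75 CPM in sgGFP. Even the lowest mutant library lay above both controls, and sgOfd1 replicate 1 was the highest. Col18a1 rose by 1.65 in sgOfd1 (SE 0.279, adjusted p = 0.00455), a call that held under each alternative and without any 1 library. It rose by 1.26 in sgKif3a (SE 0.303, adjusted p = 0.0172), where the call was lost without sgGFP replicate 1 (0.0632), sgGFP replicate 2 (0.0539), sgKif3a replicate 1 (0.0630) or sgKif3a replicate 2 (0.102). The mutants did not differ from each other by test (0.38 for sgOfd1 over sgKif3a, SE 0.246, adjusted p = 0.705). Col15a1, the other multiplexin, held 25 counts in all and did not pass (adjusted p = 0.854 in sgOfd1 and 0.855 in sgKif3a).

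**Figure D4:**
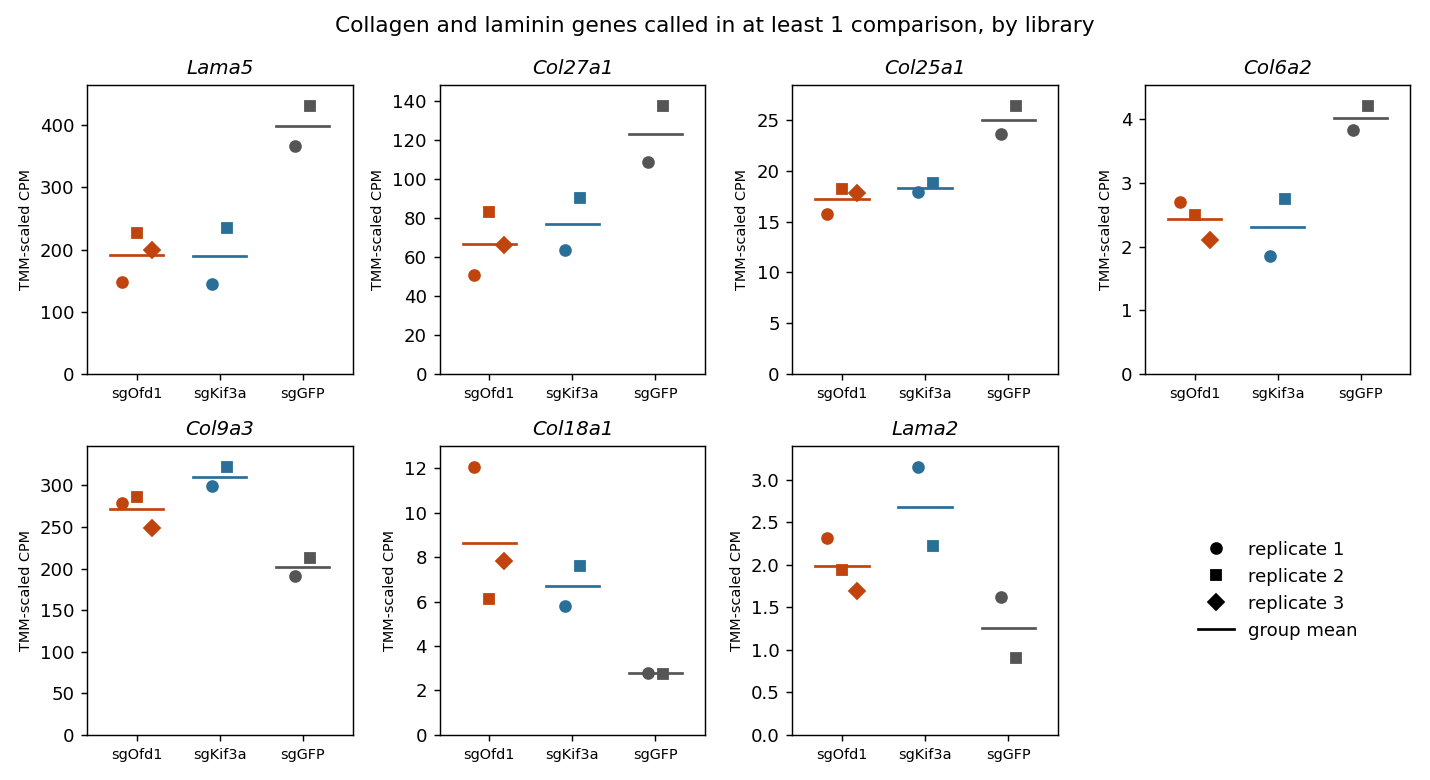
TMM-scaled CPM in each library of the 7 members called in at least 1 comparison; symbols mark the replicate number and lines the group mean, with each axis starting at 0. In every panel the mutant libraries (5 of 5) lie on one side of both sgGFP libraries.

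The promoter windows of 3 further called collagens are shown for comparison with Lama5: Col27a1 and Col25a1, which fell, and Col18a1, which rose and has 2 annotated starts that the count table does not separate. GC boxes and CCAAT boxes are in capitals.
Col27a1 (GRCm38.p6, chr4:63215162-63215461, plus strand): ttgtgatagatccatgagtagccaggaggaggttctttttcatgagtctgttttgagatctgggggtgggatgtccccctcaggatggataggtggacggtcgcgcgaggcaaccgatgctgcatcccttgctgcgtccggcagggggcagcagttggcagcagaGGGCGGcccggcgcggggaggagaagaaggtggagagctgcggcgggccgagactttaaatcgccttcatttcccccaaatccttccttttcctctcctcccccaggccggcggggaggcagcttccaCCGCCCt
Col25a1 (GRCm38.p6, chr3:130180595-130180894, plus strand): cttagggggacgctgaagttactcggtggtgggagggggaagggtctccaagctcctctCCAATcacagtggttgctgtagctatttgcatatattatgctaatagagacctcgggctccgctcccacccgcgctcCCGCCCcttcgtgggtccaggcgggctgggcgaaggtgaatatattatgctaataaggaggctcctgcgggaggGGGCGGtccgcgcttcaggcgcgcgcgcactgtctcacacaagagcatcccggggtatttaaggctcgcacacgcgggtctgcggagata
Col18a1 start 1 (GRCm38.p6, chr10:77166481-77166780, minus strand): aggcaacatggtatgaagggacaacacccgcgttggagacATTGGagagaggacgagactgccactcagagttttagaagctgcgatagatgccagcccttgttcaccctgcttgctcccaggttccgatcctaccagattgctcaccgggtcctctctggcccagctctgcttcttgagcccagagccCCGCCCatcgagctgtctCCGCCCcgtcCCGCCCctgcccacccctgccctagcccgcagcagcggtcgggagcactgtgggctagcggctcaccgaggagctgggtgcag
Col18a1 start 2 (GRCm38.p6, chr10:77113656-77113955, minus strand): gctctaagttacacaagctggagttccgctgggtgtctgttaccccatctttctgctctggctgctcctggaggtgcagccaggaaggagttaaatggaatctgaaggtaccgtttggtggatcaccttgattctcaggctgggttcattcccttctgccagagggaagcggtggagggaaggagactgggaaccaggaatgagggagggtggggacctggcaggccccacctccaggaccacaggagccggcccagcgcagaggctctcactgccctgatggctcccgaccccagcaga
Col27a1 holds 2 GC boxes, Col25a1 holds 2 GC boxes and 1 CCAAT box, and Col18a1 holds 3 GC boxes and 1 CCAAT box at start 1 and neither at start 2. No Gli core or hypoxia response core is in these 4 windows. The table has no window for Col9a3.

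The collagen IV genes of basement membranes showed no called change. Col4a1 and Col4a2 encode the chains of the most widespread collagen IV trimer, which takes 2 alpha 1 chains for 1 alpha 2 chain. Col4a1 stood at 42.8, 44.3 and 42.4 CPM in sgOfd1, at 43.7 and 42.02 CPM in sgKif3a and at 40.5 and 38.4 CPM in sgGFP. Its mutant libraries lay narrowly above both controls (0.13 in sgOfd1, SE 0.0711, adjusted p = 0.258, and 0.12 in sgKif3a, SE 0.0775, adjusted p = 0.317). Col4a2 stood at 15.1, 16.6 and 13.8 CPM in sgOfd1, at 14.8 and 15.9 CPM in sgKif3a and at 14.9 and 16.5 CPM in sgGFP, with overlapping groups (-0.05 in sgOfd1, SE 0.112, adjusted p = 0.815, and -0.03 in sgKif3a, SE 0.122, adjusted p = 0.881). Per kilobase Col4a1 exceeded Col4a2 by 2.597 to 2.98 times in sgOfd1, 2.58 to 2.87 times in sgKif3a and 2.27 to 2.64 times in sgGFP. The other chains are those of more restricted trimers: Col4a4 ranged from 1.17 to 1.86 CPM over all libraries, Col4a6 ranged from 0.651 to 1.44 CPM, Col4a3 held 22 counts in all and Col4a5 held 1. None passed.

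Col4a1 and Col4a2 lie head to head, and both windows are shown because the genes share them. The windows overlap by 78 bases (chr8:11312777-11312854), the first exons overlap by 22 bases on opposite strands, and capitals mark GC and CCAAT boxes.
Col4a1 (GRCm38.p6, chr8:11312777-11313076, minus strand): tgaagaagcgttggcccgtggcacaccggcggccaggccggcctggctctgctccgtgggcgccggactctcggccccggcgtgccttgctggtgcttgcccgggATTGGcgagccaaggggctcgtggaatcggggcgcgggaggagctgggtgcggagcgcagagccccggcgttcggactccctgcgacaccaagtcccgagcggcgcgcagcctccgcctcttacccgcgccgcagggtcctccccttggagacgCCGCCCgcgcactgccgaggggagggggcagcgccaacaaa
Col4a2 (GRCm38.p6, chr8:11312555-11312854, plus strand): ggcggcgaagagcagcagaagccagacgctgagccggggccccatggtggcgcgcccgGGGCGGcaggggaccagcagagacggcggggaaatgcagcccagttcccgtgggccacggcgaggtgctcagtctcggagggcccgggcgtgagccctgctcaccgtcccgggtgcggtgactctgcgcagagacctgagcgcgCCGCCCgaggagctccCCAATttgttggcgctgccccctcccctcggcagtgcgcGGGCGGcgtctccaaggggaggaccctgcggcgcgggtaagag
Col4a1 holds 1 GC box and 1 CCAAT box, and Col4a2 holds 3 and 1; the GC box within the shared stretch is counted in both.

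Within collagen VI, which forms beaded filaments from 3 chains, Col6a2 passed in sgKif3a and Col6a1 passed in neither mutant, and the 2 chains were not tested against each other. Col6a1 stood at 8.76, 8.27 and 8.08 CPM in sgOfd1, at 7.38 and 9.46 CPM in sgKif3a and at 8.84 and 10.2 CPM in sgGFP, and did not pass (adjusted p = 0.429 in sgOfd1 and 0.457 in sgKif3a). Col6a2 stood at 2.71, 2.50 and 2.11 CPM in sgOfd1 and at 1.86 and 2.76 CPM in sgKif3a, against 3.83 and 4.21 CPM in sgGFP, so that every mutant library lay below both controls. Col6a2 fell by 0.81 in sgKif3a (SE 0.243, adjusted p = 0.0434), while its change of -0.72 in sgOfd1 did not pass (SE 0.219, adjusted p = 0.0572) unless filterByExpr (0.0456) or no filter (0.0322) was used. The sgKif3a call was lost with DESeq2 (0.127) and without sgGFP replicate 1 (0.104), sgGFP replicate 2 (0.161), sgOfd1 replicate 2 (0.0617) or sgKif3a replicate 1 (0.283). Col6a3, the largest chain, held 15 counts in all, and Col6a4, Col6a5 and Col6a6 held 0, 2 and 4.

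The remaining classes were low. Col7a1, the anchoring fibril collagen of skin, ranged from 1.18 to 2.11 CPM and Col28a1 from 1.13 to 2.40 CPM over the 7 libraries, and Col8a2 held 12 counts, just above the limit of 10, as Lama4 with 9 counts was just below it. None of these 3 tested members passed. Col26a1, Col10a1 and Col8a1 held 4, 1 and 1 counts, and Col24a1, Col19a1, Col13a1 and Col6a4 held none. In all, 10 of the 39 tested members had no group mean of 1 CPM, and 32 of the 39 were called in no comparison.

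Several called members have another member nearby in the RefSeq gene order. Lama5, which fell, and Col9a3, which rose, lie on chromosome 2 with 8 protein-coding genes between them, and Col20a1, which did not pass, lies 9 genes beyond Col9a3. On chromosome 10 Col18a1, which rose, lies 2 genes from Col6a1 and 3 from Col6a2, which neighbour each other.

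Between the 2 mutants no member differed in the direct test of sgOfd1 over sgKif3a: 0 of 39 were called by edgeR and 0 by DESeq2. Over all genes edgeR called 0.103%. An unadjusted edgeR p under 0.05 was reached by 2 of the 39 members and by 1243 of all 14588 genes tested. The libraries of the groups did not overlap for 3 members, 1 higher and 2 lower in sgOfd1, against 11.9% and 10.6% of all genes. Col9a3 was 0.19 lower in sgOfd1 on the log2 scale (249 to 286 CPM in sgOfd1, against 299 to 322 CPM in sgKif3a; SE 0.0798, adjusted p = 0.553). For Lama5 the difference was 0.01 with an SE of 0.196 (adjusted p = 0.994), and its sign turned under 4 alternatives. A miss of the threshold does not show that the guides act alike.

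Genes that work with these matrix proteins were read from the same fit. Of 16 tested receptors of collagen and laminin, 2 rose and 1 fell in sgOfd1 and 1 rose in sgKif3a, with median log2 fold changes of -0.16 in sgOfd1 and -0.13 in sgKif3a. The called shares were 18.8% in sgOfd1 and 6.25% in sgKif3a, against 11.7% and 16.4% of all genes. Itga7, the integrin alpha 7 chain that binds laminin, stood at 151, 105 and 103 CPM in sgOfd1 and at 140.3 and 123 CPM in sgKif3a, against 57.4 and 66.6 CPM in sgGFP. Each mutant library lay far above both controls, and the rises of 0.95 in sgOfd1 (SE 0.155, adjusted p = 0.00376) and 1.09 in sgKif3a (SE 0.166, adjusted p = 0.00168) held without any 1 library. Other laminin receptor genes, Itga6, Itga3, Itgb1, Itgb4, Dag1 and Bcam, did not pass (adjusted p from 0.0633 to 0.954). In sgKif3a Itgb4 was nearest, at -0.48 (adjusted p = 0.0633), with -0.34 in sgOfd1 (0.147). In sgOfd1 Itga6 was nearest, at -0.32 (adjusted p = 0.0704), with -0.28 in sgKif3a (0.114). Bcam, a receptor for the alpha 5 chain, stood at -0.66 in sgOfd1 (adjusted p = 0.285) and -0.69 in sgKif3a (0.287). Ddr2, a receptor tyrosine kinase for fibrillar collagen, fell by 0.33 in sgOfd1 (adjusted p = 0.0116; 0.129 without sgGFP replicate 2) and had a log2 fold change of -0.20 in sgKif3a (adjusted p = 0.0881), where DESeq2 called it (0.0429). Gpr56, an adhesion receptor for collagen III, rose by 0.44 in sgOfd1 (adjusted p = 0.0324), a call lost without sgGFP replicate 1 (0.165) or 2 (0.0813), sgOfd1 replicate 2 (0.0506), or sgKif3a replicate 1 (0.0609) or 2 (0.0606). In sgKif3a Gpr56 did not pass (0.28, adjusted p = 0.149) but did without sgOfd1 replicate 1 (0.0173).

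Of 13 tested basement membrane partners, 1 rose and 2 fell in each mutant (medians -0.07 in sgOfd1 and -0.09 in sgKif3a). The called share was 23.1% in each, against 11.7% of all genes in sgOfd1 and 16.4% in sgKif3a. Nid1 and Hspg2, which link laminin and collagen IV, and Agrn did not pass (adjusted p from 0.125 to 0.840). Smoc1, a calcium-binding matrix protein, stood at 388, 310.1 and 298 CPM in sgOfd1 and at 353 and 323 CPM in sgKif3a, against 243 and 234 CPM in sgGFP, and rose by 0.48 in sgOfd1 (adjusted p = 0.0143) and 0.50 in sgKif3a (0.0124). Fibronectin, Fn1, fell by 0.44 in sgOfd1 (adjusted p = 0.0206) and 0.57 in sgKif3a (0.00748), and fibulin 1, Fbln1, by 0.52 in sgOfd1 (0.0242) and 0.84 in sgKif3a (0.00286). Without sgGFP replicate 2 the calls of Smoc1 (0.0757 in sgOfd1 and 0.0566 in sgKif3a) and Fn1 (0.254 in sgOfd1 and 0.0646 in sgKif3a) were lost in both mutants, with Fn1 at -0.24 in sgOfd1 and -0.37 in sgKif3a. The Fbln1 call in sgOfd1 was lost without sgGFP replicate 1 (0.103) or 2 (0.0643) or sgOfd1 replicate 2 (0.0610), that of Smoc1 without sgGFP replicate 1 (0.0589) and that of Fn1 without sgOfd1 replicate 2 (0.0649). In sgKif3a these 3 calls were lost without sgKif3a replicate 1 (0.0549 for Fbln1, 0.133 for Smoc1 and 0.0710 for Fn1).

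Of 9 tested genes for collagen folding and trimming, 1 rose in sgOfd1 and 2 in sgKif3a, with none called lower (medians -0.23 in sgOfd1 and 0.05 in sgKif3a). The called shares were 11.1% in sgOfd1 and 22.2% in sgKif3a, against 11.7% and 16.4% of all genes. Serpinh1, the collagen chaperone, was hardly detected, with 0.277 CPM at most. Larger falls in this list narrowly missed the threshold. Adamts14 stood at -0.68 in sgOfd1 (adjusted p = 0.0540) and -0.71 in sgKif3a (0.0535), with every mutant library below both controls. Colgalt2 stood at -0.77 in sgKif3a (0.0519) and -0.33 in sgOfd1 (0.339). Ppib, a prolyl isomerase of the endoplasmic reticulum, rose by 0.22 in sgOfd1 (adjusted p = 0.0455) and 0.27 in sgKif3a (0.0217), and Fkbp10, a collagen chaperone, by 0.31 in sgKif3a (0.0339). The Ppib call in sgOfd1 was lost without any 1 of the 7 libraries (0.0531 to 0.289), and the sgKif3a calls of both genes were lost without any 1 sgGFP or sgKif3a library (0.0714 to 0.195), and that of Fkbp10 with DESeq2 (0.0726).

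Of 11 tested metalloproteinases and inhibitors, 3 rose and 2 fell in each mutant (medians 0.05 in sgOfd1 and -0.16 in sgKif3a). The called share was 45.5% in each, against 11.7% of all genes in sgOfd1 and 16.4% in sgKif3a. The inhibitors Timp2 and Timp3 rose: Timp2 stood at 9.99, 6.99 and 6.59 CPM in sgOfd1 and at 11.1 and 8.98 CPM in sgKif3a, against 3.68 and 2.75 CPM in sgGFP, and Timp3 at 37.1, 18.4 and 24.2 CPM in sgOfd1 and at 29.9 and 25.2 CPM in sgKif3a, against 10.9 and 10.7 CPM in sgGFP. Every mutant library lay above both controls for both genes. Timp2 rose by 1.29 in sgOfd1 (SE 0.223, adjusted p = 0.00493) and 1.64 in sgKif3a (SE 0.233, adjusted p = 0.00115), and Timp3 by 1.30 in sgOfd1 (SE 0.241, adjusted p = 0.00695) and 1.35 in sgKif3a (SE 0.257, adjusted p = 0.00545; 0.0790 without sgKif3a replicate 1). The membrane-bound proteases Mmp15 and Mmp17 fell, Mmp15 by 0.84 in sgOfd1 (adjusted p = 0.0146) and 1.03 in sgKif3a (0.00722) and Mmp17 by 0.39 in sgOfd1 (0.0211) and 0.98 in sgKif3a (0.000264). Mmp16, also membrane-bound, rose by 0.36 in sgOfd1 (0.0377) and 0.68 in sgKif3a (0.00180). In sgOfd1 each of these protease calls was lost without sgGFP replicate 1 (0.0599, 0.191 and 0.194 for Mmp15, Mmp17 and Mmp16). Those of Mmp17 and Mmp16 were also lost without sgGFP replicate 2 (0.0810 and 0.156) or sgOfd1 replicate 1 (0.0542 and 0.112), and that of Mmp16 without sgOfd1 replicate 3 (0.0541). In sgKif3a the Mmp15 call was lost without sgKif3a replicate 1 (0.111).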

How the data were processed

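RNA of 7 SMB21 cultures was sequenced as single-end reads of 75 bases from stranded poly-A libraries, per the labels' protocols. The authors deposited raw, unnormalized counts of reads for each gene symbol. The submitters' processing notes name STAR, DESeq2 and mm9 without saying how each was used. The counter, annotation and strand setting are not given in these sources, so reads of overlapping genes on opposite strands may not be told apart (10 of the 39 tested members overlap an exon of another gene in GRCm38).

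Genes with 10 or more counts summed over the 7 libraries (14588 genes, 99.99% of counts) were fitted in edgeR 4.0.16 (R 4.3.3) with TMM factors and 1 mean per group, leaving 4 residual degrees of freedom. Each contrast used the quasi-likelihood F test with Benjamini-Hochberg adjustment over all tested genes, called under 0.05. Every adjusted p is from this fit unless DESeq2 or an alternative is named. SEs derive from the F statistic. The labels call the replicates biological; p-values measure only the spread between these libraries, whose 2 or 3 per group also differed beyond counting noise (chi-square per degree of freedom 4.06 to 14.5 within groups). Alternatives were RLE factors, library totals alone, filterByExpr, no filter, DESeq2 1.42.0, a replicate block, and leaving out each library.

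Exon lengths are the union of exons in GENCODE M21 basic (55 of 55 symbols matched), and promoter windows are from RefSeq GRCm38.p6 (40 of 55 members matched), matched by symbol; no coordinate was converted to mm9. Named members were those called in any contrast, the 5 with the most reads among collagens and among laminins, their partner chains, and of each partner list up to 3 called genes with the smallest adjusted p per contrast. Others were named after their values were seen, to account for every member. The members and gene lists were chosen with earlier results of these data known. Values of 1 member that enter the counts and sums are not reported here.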

Additional observations from a re-analysis of the deposited data

How the results depend on the processing

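Of 5 members called in sgOfd1 over sgGFP, the 5 stayed called with RLE factors, library totals alone, filterByExpr, no filter, DESeq2 and a replicate block. Without filter 5 members were called lower in that contrast. Of 7 members called in sgKif3a over sgGFP, the 7 stayed called with RLE factors, library totals alone, filterByExpr, no filter and a replicate block. DESeq2 kept 4 of these sgKif3a calls, 2 of them lower, and lost Col27a1, Col6a2 and Lama2. Leaving out 1 library at a time, members called numbered 1 to 3 higher and 1 to 3 lower in sgOfd1 (1 higher without sgGFP replicate 1, 1 lower without sgGFP replicate 2), 1 to 4 higher and 0 to 6 lower in sgKif3a (0 lower without sgKif3a replicate 1), and 0 to 0 either way between the mutants. Over all genes these ranges were 283 to 1138 higher and 387 to 1364 lower in sgOfd1, 244 to 1294 and 403 to 1568 in sgKif3a, and 0 to 24 and 0 to 3 between the mutants. For sgOfd1 over sgKif3a, genes called higher, 15 in the reported fit, numbered 75 without filter and 85 by DESeq2, and genes called lower, 0 in the reported fit (1243 at an unadjusted p under 0.05 in either direction), numbered 1 with filterByExpr, 5 without filter and 5 by DESeq2.

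The replicate number did not pair the libraries by the check used, which asks for a correlation over 0.1 in every same-numbered pair: deviations from the group mean correlated at 0.116 and 0.115 between same-numbered sgOfd1 and sgGFP libraries, 0.280 and 0.219 between sgOfd1 and sgKif3a, and -0.00275 between sgKif3a and sgGFP. With a replicate block, 5 members were called higher in sgOfd1 (adding Col12a1, Col14a1 and Lamb2) and 6 in sgKif3a (Col22a1 and Lamb2 among those added), Col5a1 was called lower in both and Col2a1 in sgKif3a, Gpr56 was called in sgKif3a (adjusted p = 0.0336), and over all genes 1585 higher and 1990 lower in sgOfd1, 1697 and 2015 in sgKif3a, and 110 and 67 between the mutants.

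Signs turned for some small differences (log2). In sgOfd1 over sgGFP, Col4a2 stood at 0.0143 with the replicate block and ranged from -0.125 to 0.0253 over the fits that left out 1 library, and in sgKif3a over sgGFP from -0.113 to 0.0375. In sgOfd1 over sgKif3a, Lama5 stood at -0.0137 with the block and ranged from -0.289 to 0.395, Col27a1 from -0.431 to 0.0633 and Col6a2 from -0.169 to 0.393. The cause was not tested. Of the other gene values under alternatives, 749 kept direction and side of the threshold, 73 lost a call and 12 gained one.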

Other observations

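Gli1, a Hedgehog target gene and effector, and the members Lama5 and Col27a1 varied in a similar order among the 5 mutant libraries. Gli1 stood at 167, 325 and 265 CPM in sgOfd1 and at 201 and 310.4 CPM in sgKif3a, against 427 and 476 CPM in sgGFP. For all 3 genes the libraries sgOfd1 replicate 1 and sgKif3a replicate 1 were the lowest 2 of the 7, as they also were for Hhip, Pdgfra, Mmp15 and Adamts14, so this order is not particular to them. With 5 mutant libraries no correlation was computed, and whether these genes depend on each other was not tested.

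The gene for the laminin receptor chain Itga7 was highest in the same sgOfd1 replicate 1 and sgKif3a replicate 1, at 151 and 140.3 CPM. These libraries were also the highest for Timp2, Timp3, Smoc1, Gfap and the members Lamb2 and Lama2, so this order is not particular to Itga7.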
